A study of Mus musculus with 6 samples.

Results

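The genes of the Nodal pathway and of the gastrula organizer were followed in mouse embryos with and without Brg1. The 10 genes were Nodal, Gdf3, Tdgf1, Lefty1, Lefty2, Cer1, Chrd, Foxh1, Gsc and Lhx1, taken by gene name from the 19505 named genes on the array. They had 11 probes, since Lhx1 had 2. For 9 of the genes the scanner's flag marked a probe as well above background on every array of 1 genotype or of both. Gdf3 did not, and it was not tested. Total RNA of whole embryos at embryonic day 8.5 was labelled with Cy3 and hybridised to one-colour Agilent mouse arrays. The 3 Brg1d/d embryo samples were conditional knockouts of Brg1, also called Smarca4, the ATPase of the SWI/SNF chromatin remodelling complex. The 3 Brg1fl/fl samples were their wild type counterparts with the floxed allele. In all 6 samples the dam had been injected with tamoxifen, and the Cre driver and the number of embryos per sample were not given in the sources used here. Replicates are therefore separate samples by their labels only, and p-values measure the spread between these samples.

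Nodal is a ligand of the TGF-beta family that signals through activin receptors and their coreceptor Tdgf1 (Cripto) to SMAD2 and SMAD3, which bind DNA with the forkhead factor FOXH1. It induces its own gene and genes of its inhibitors Lefty1, Lefty2 and Cer1, and it patterns the primitive streak, the node and the anterior visceral endoderm. Gsc, Chrd and Lhx1 are genes of the gastrula organizer, whose mouse forms are the early streak organizer and the node. These genes are best known from gastrulation, a stage before the one sampled here.

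Levels are given as log2 of the processed signal minus the array's 75th percentile, so that 0 is the 75th percentile of that array. A level compares arrays for 1 probe and not 1 probe with another. Differences are Brg1d/d minus Brg1fl/fl from limma, fitted over 27844 probes and adjusted by the Benjamini-Hochberg method, and a gene was called at an adjusted p under 0.05. Smarca4 was at 1.49, 2.65 and 2.0 on the Brg1d/d arrays, against 5.28, 4.45 and 4.50 on the Brg1fl/fl arrays, a 6.47-fold lower level (limma adjusted p 0.0113). The 75th percentile was 970.4 to 1627 units on Brg1d/d arrays, against 957.5 to 1010 units on Brg1fl/fl arrays, and 68.5% to 73.5% of spots were well above background on the 6 arrays. The brightest spike-in control read 12934 and 6905 units on Brg1d/d arrays 1 and 3, and 208550 to 241121 units on the other 4 arrays. Brg1d/d 1 and 3 were scanned on days of their own, while Brg1d/d 2 shared its scan day with the 3 Brg1fl/fl arrays. The difference of Brg1d/d 2 from those 3 arrays is given beside results below as the same-day difference, which has 1 knockout array and no replicate. The 3 Brg1fl/fl arrays shared 1 slide and each Brg1d/d array had a slide of its own, so no difference within a slide could be had.

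Of the 9 genes tested, Lhx1 was higher in Brg1d/d embryos and no other passed in either direction, while 5.24% of the 15018 genes tested were called higher and 5.31% lower. Nodal, Chrd, Foxh1 and Gsc were, with Lhx1, the 5 genes whose 3 Brg1d/d values all lay above the 3 Brg1fl/fl values, a pattern held by 22.8% of all genes tested. The same 5 genes had an unadjusted p under 0.05 in that direction, as did 17.8% of all genes tested, and 0 of the 9 had one in the lower direction. Of all 15018 genes, 4887 had an unadjusted p under 0.05 in either direction, 2673 of them higher. Counts at an unadjusted p in the lists below are to be read beside these. None of the 9 had all Brg1d/d values below all Brg1fl/fl values, which 19.1% of all genes showed. The median difference of the 9 genes was 0.81 on the log2 scale, against 0.07 over all genes tested. Differences were above 0 for 8 of the 9, Tdgf1 and Lefty1 with unstable signs among them, and for 8251 of all 15018 genes. Lefty1 was kept only through its Brg1d/d arrays and Lefty2 only through its Brg1fl/fl arrays, so the filter could favour the signs these genes had. Over the 7 genes well above background on all 6 arrays the median was 0.87. Same-day differences had a median of 0.60, against 0.004 over all genes, and 7 of the 9 were above 0, as were 7573 of the 15018. In whole embryos, fewer cells of a type and less RNA per cell cannot be told apart.

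**Figure D1:**
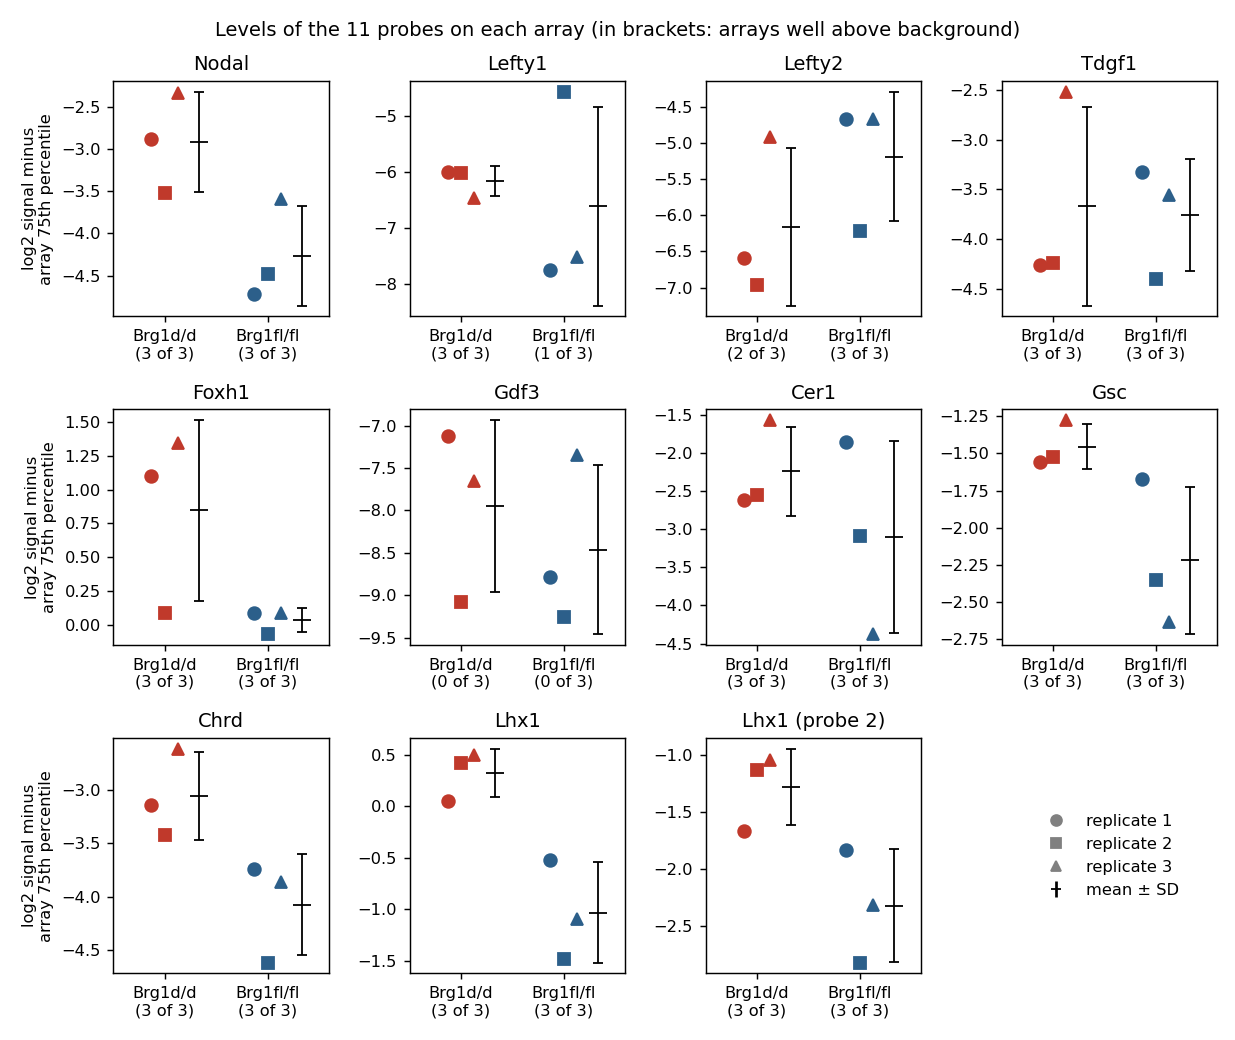
Level of each of the 11 probes on each array, on the centred log2 scale, with Brg1d/d arrays left of Brg1fl/fl arrays and a bar at each group's mean. The Lhx1 groups stand apart by 0.57, those of Foxh1 only touch, and those of Lefty1, Lefty2, Tdgf1 and Cer1 overlap.

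Nodal, the ligand, was at -2.88, -3.52 and -2.34 in Brg1d/d embryos 1, 2 and 3, against -4.72, -4.48 and -3.60 in Brg1fl/fl embryos 1, 2 and 3. All knockout values lay above all control values, with a gap of 0.075 between the lowest knockout and the highest control value. The means were -2.92 ± 0.59 in Brg1d/d and -4.27 ± 0.59 in Brg1fl/fl (SD, n = 3 each). The difference was 1.35 ± 0.40 (SE, 95% interval 0.39 to 2.31), or 2.55-fold, and did not pass (limma adjusted p 0.0818). It was 0.74 on the same scan day, where Brg1d/d 2 had the lowest of the 3 knockout values. After normexp correction it was 0.78. Leaving out Brg1d/d 2 gave 1.65 with a limma adjusted p of 0.0438, within a range of 0.0438 to 0.688 over 18 alternatives, and 12% of all genes were then called higher. No knockout array then shared a scan day or spike-in level with a control, so genotype could not be told apart from these. The probe lies at chr10:60942629-60942688 (mm7, the build of the array files).

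Gdf3, a ligand related to Nodal that also acts through Tdgf1, stayed too close to background on all 6 arrays, so no fold is given. Its probe lies at chr6:122643573-122643632 (mm7).

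Tdgf1, the coreceptor that Nodal needs to bind its receptors, was at -4.26, -4.24 and -2.52 in Brg1d/d embryos, against -3.33, -4.40 and -3.56 in Brg1fl/fl embryos. The groups overlapped, and Brg1d/d 3 was the only knockout array above all controls. The difference was 0.09 ± 0.53 (SE, 95% interval -1.19 to 1.37, limma adjusted p 0.92), and the shared scan day gave -0.48. Its sign turned with the scaling, at -0.01 with arrays centred on the median and -0.0094 after normexp correction, and no direction is given. Tdgf1 has pseudogene copies in the mouse genome and its probe, at chr9:110638452-110638511 (mm7), was not checked against them, so its values are uncertain.

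Lefty1 and Lefty2, secreted inhibitors that block Nodal at its receptors, had dim probes. The Lefty1 values were -6.01, -6.01 and -6.48 in Brg1d/d embryos, against -7.76, -4.57 and -7.52 in Brg1fl/fl embryos. Brg1fl/fl 2 alone was well above background among the controls, as were all 3 knockout arrays, and that control exceeded every knockout value. The difference of 0.45 ± 0.82 (SE, 95% interval -1.52 to 2.43) did not pass (limma adjusted p 0.727), and its size and sign turned on single controls. Without Brg1fl/fl 2 it was 1.48 (limma adjusted p 0.0559), without Brg1fl/fl 1 or 3 it was -0.12 and -0.0007, and under quantile normalization -0.04 (limma adjusted p 0.0559 to 1.0 over 17 alternatives). Lefty2 was at -6.59, -6.97 and -4.91 in Brg1d/d embryos, against -4.67, -6.22 and -4.67 in Brg1fl/fl embryos. It was the only gene of the 9 with a difference below 0, at -0.97 ± 0.65 (SE, 95% interval -2.54 to 0.59), and this did not pass either (limma adjusted p 0.333). Brg1d/d 2 was not well above background for Lefty2, and the same-day difference was -1.78. The Lefty2 difference was -0.57 without Brg1d/d 2, -1.59 without Brg1d/d 3 and -1.49 without Brg1fl/fl 2, and lay between -1.78 and -0.45 over 17 alternatives, none of which passed (limma adjusted p 0.141 to 0.596). The probes, at chr1:180917655-180917714 for Lefty1 and chr1:180877495-180877554 for Lefty2 (mm7), share no run longer than 7 bases, so the pair was read by separate sequences.

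Cer1, a secreted inhibitor of Nodal, BMP and Wnt made by the anterior visceral endoderm and early definitive endoderm, was at -2.61, -2.54 and -1.56 in Brg1d/d embryos. In Brg1fl/fl embryos it was at -1.85, -3.08 and -4.38. The controls spread more widely than the difference between genotypes, and Brg1fl/fl 1 lay above 2 of the 3 knockout arrays. The difference was 0.87 ± 0.64 (SE, 95% interval -0.67 to 2.41, limma adjusted p 0.378), and the same-day difference 0.56. It was 1.49 without Brg1fl/fl 1, 0.53 without Brg1d/d 3 and 0.23 without Brg1fl/fl 3, the bounds over 18 alternatives being 0.23 and 1.49, and passed under none (limma adjusted p 0.101 to 0.895). The probe lies at chr4:82285553-82285612 (mm7).

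Chrd encodes chordin, a BMP antagonist secreted by the node and its derivatives. Its levels were -3.14, -3.42 and -2.62 in Brg1d/d embryos, against -3.74, -4.61 and -3.86 in Brg1fl/fl embryos. All knockout arrays were above all control arrays, by 0.32 at the closest. The means were -3.06 ± 0.41 in Brg1d/d and -4.07 ± 0.47 in Brg1fl/fl (SD, n = 3 each), and the difference was 1.01 ± 0.31 (SE, 95% interval 0.26 to 1.76), or 2.02-fold. It did not pass (limma adjusted p 0.0881), nor under any of 18 alternatives, at 0.59 (normexp correction) to 1.19 (limma adjusted p 0.0633 to 0.676), and the same-day difference was 0.65. The probe is shown because its 60 bases span 173 bases of the genome, at chr16:20287963-20288135 (mm7), so it reads a spliced coding sequence:
Chrd probe: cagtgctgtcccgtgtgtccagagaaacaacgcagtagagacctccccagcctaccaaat

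Foxh1, the forkhead partner of SMAD2 on Nodal target genes, was at 1.10, 0.09 and 1.35 in Brg1d/d embryos, against 0.09, -0.07 and 0.09 in Brg1fl/fl embryos. The high values were those of Brg1d/d 1 and 3, the arrays with dim spike-in controls and scan days of their own. Brg1d/d 2 exceeded the highest control by 0.000585, and the same-day difference was 0.05. The difference over all arrays was 0.81 ± 0.33 (SE, 95% interval 0.015 to 1.61, limma adjusted p 0.153). Without Brg1d/d 2 it was 1.19 with a limma adjusted p of 0.0184, within 0.0184 to 0.955 over 18 alternatives. That fit kept only knockout arrays with dim spike-ins and scan days of their own, so it could not tell genotype apart from these. With scan day or spike-in level as a block the difference was 0.05 and did not pass (limma adjusted p 0.955 and 0.95). The probe lies at chr15:76751277-76751336 (mm7).

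Gsc, a homeobox repressor expressed in the early organizer and the prechordal plate, was at -1.56, -1.53 and -1.28 in Brg1d/d embryos, against -1.67, -2.35 and -2.64 in Brg1fl/fl embryos. The knockout arrays lay close together and above all controls, with a gap of 0.11 to Brg1fl/fl 1. The means were -1.45 ± 0.15 in Brg1d/d and -2.22 ± 0.50 in Brg1fl/fl (SD, n = 3 each). The difference of 0.77 ± 0.27 (SE, 95% interval 0.12 to 1.42), or 1.70-fold, did not pass (limma adjusted p 0.115), and the same-day difference was 0.70. Without Brg1fl/fl 1 it was 1.04 with a limma adjusted p of 0.0225, within 0.0225 to 0.669 over 18 alternatives, and 7.28% of all genes were then called higher. The probe lies at chr12:101965538-101965597 (mm7).

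Lhx1 (Lim1), a LIM homeobox factor that the early organizer and the anterior visceral endoderm need to form a head, was the gene that passed. Its brighter probe was at 0.05, 0.42 and 0.50 in Brg1d/d embryos, against -0.52, -1.49 and -1.09 in Brg1fl/fl embryos. All knockout arrays were above the 75th percentile of their array and all controls below it, with a gap of 0.57 between the groups. The means were 0.32 ± 0.24 in Brg1d/d and -1.03 ± 0.49 in Brg1fl/fl (SD, n = 3 each). The difference was 1.35 ± 0.28 (SE, 95% interval 0.69 to 2.02), or 2.56-fold. It passed with a limma adjusted p of 0.0355, and 4.08% of the 15018 genes had a higher difference. The same-day difference was 1.45. This probe was printed 10 times on each array, and its spots on 1 array differed by an SD of 0.027 to 0.067 on the log2 scale, far less than the spread between arrays of 1 genotype.

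The second Lhx1 probe, printed once, was lower in signal and moved the same way. It was at -1.67, -1.13 and -1.05 in Brg1d/d embryos, against -1.83, -2.82 and -2.31 in Brg1fl/fl embryos, without overlap. Its difference was 1.04 ± 0.30 (SE), or 2.06-fold. It did not pass by itself (limma adjusted p 0.078), and the shared scan day gave 1.19. Without Brg1fl/fl 1 it was 1.28 with a limma adjusted p of 0.0352, within 0.0352 to 0.472 over 17 alternatives. The 2 probes lie at chr11:84589497-84589556 and chr11:84588294-84588353 (mm7). The sequence of the brighter one is shown as the read-out of the gene that passed:
Lhx1 probe: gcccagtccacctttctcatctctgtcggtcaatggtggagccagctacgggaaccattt

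The Lhx1 call depended on the arrays and the model, while its direction did not. Some alternatives could not test the direction. Changes of filter, variance model, slide and replicate number left the difference at 1.35, and the series table repeated the reported fit. Scan day and spike-in level as blocks returned the same-day difference. The difference was above 0 under all 18 alternatives, at 1.13 to 1.61, and it passed under 9 of them (limma adjusted p 0.0127 to 0.398 over the 18). With scan day or spike-in level as a block it was 1.45 and did not pass (limma adjusted p 0.398 and 0.242), and 0 and 122 genes were called on the whole array. Leaving out Brg1d/d 1, 2 or 3 gave limma adjusted p-values of 0.0946, 0.0515 and 0.129. Leaving out Brg1fl/fl 2 or 3 gave 0.118 and 0.0845, and leaving out Brg1fl/fl 1 gave a difference of 1.61 that passed (limma adjusted p 0.0127).

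**Figure D2:**
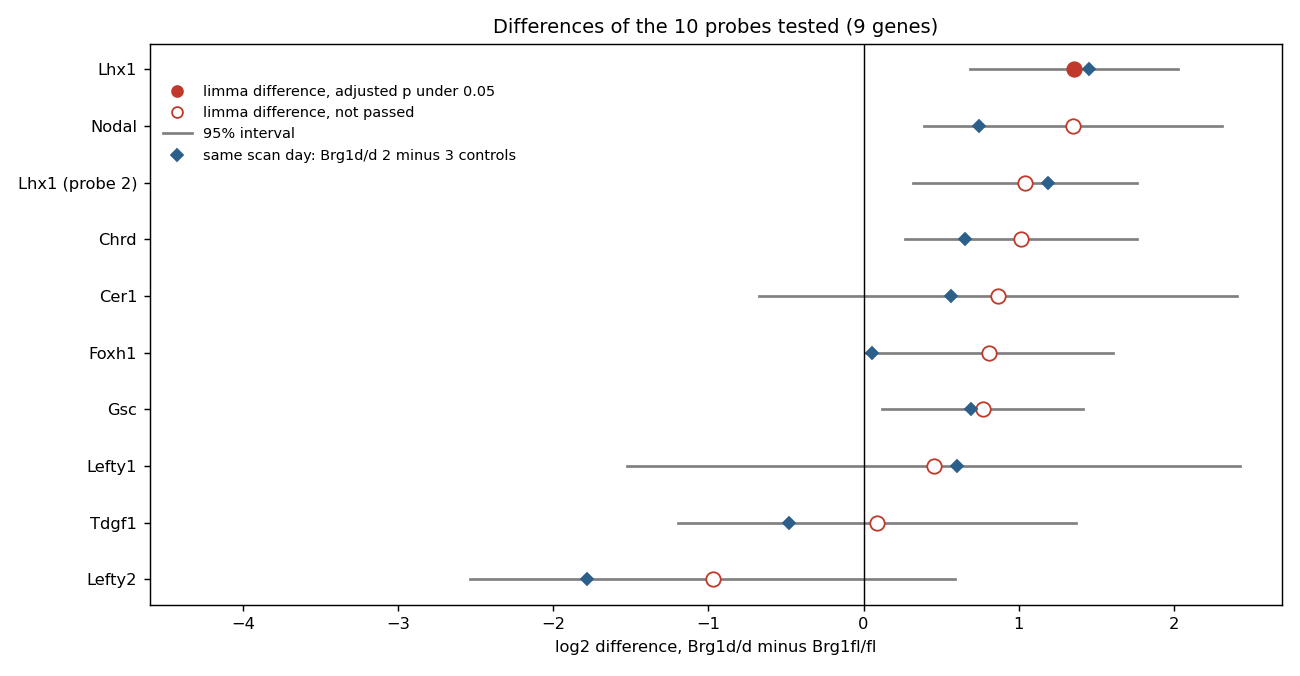
Differences of the 10 probes tested, as log2 Brg1d/d minus Brg1fl/fl, with 95% intervals from limma and, as diamonds, the same-day difference of Brg1d/d 2 from the 3 controls. The brighter Lhx1 probe alone passed, and the diamond lies far left of the circle for Nodal, Foxh1, Lefty2 and Tdgf1.

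Promoter sequences were in the RefSeq table (GRCm38.p6) for 6 of the 10 genes: Nodal, Tdgf1, Cer1, Gsc, Chrd and Lhx1. The 250 bases before each start were searched on both strands for the SMAD box CAGAC and the FOXH1 motif TGTNNATT. Windows of the same length held the first in 42.2% and the second in 10.9% of 32851 promoters. The Lhx1 window held 1 SMAD box, 60 to 56 bases before the start, and no FOXH1 motif. The Tdgf1 window held 1 SMAD box 113 to 109 bases before the start, and FOXH1 motifs on the other strand at 127 to 120 and 101 to 94 bases. Cer1 had 1 SMAD box at 213 to 209 bases, and the windows of Nodal, Gsc and Chrd had neither set of letters. A match is a stretch of letters and not a bound site. The window of the gene that passed and that of the gene with the most matches, whose difference did not pass, are shown with the matches in capitals. They lie on the minus strand at chr11:84525535-84525784 and chr9:110946159-110946408 (GRCm38.p6):
Lhx1 promoter: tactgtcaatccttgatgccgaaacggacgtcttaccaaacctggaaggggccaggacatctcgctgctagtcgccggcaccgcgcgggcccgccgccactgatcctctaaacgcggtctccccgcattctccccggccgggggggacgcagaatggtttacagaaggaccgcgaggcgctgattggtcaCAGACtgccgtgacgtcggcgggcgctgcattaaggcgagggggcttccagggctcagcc
Tdgf1 promoter: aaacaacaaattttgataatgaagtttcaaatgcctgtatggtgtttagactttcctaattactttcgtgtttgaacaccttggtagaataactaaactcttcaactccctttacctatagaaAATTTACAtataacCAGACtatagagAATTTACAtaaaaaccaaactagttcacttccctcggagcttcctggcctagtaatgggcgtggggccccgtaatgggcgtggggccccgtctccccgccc

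Controls differed among themselves for several of these genes. Brg1fl/fl 1 was above the mean of Brg1fl/fl 2 and 3 for 7 of the 9 genes, by a median of 0.65, against 0.07 over all genes tested. The gap was 1.87 for Cer1, 0.83 for Gsc, 0.77 for Lhx1 and Lefty2, and 0.49 for Chrd. Nodal and Lefty1 went the other way, at -0.68 and -1.72. Knockout arrays differed too. The mean of Brg1d/d 1 and 3 exceeded Brg1d/d 2 by 0.91 for Nodal, 1.13 for Foxh1 and 0.54 for Chrd. It did so by 0.85 for Tdgf1, 1.21 for Lefty2 and 0.46 for Cer1. For Tdgf1 and Cer1 the excess came from Brg1d/d 3 alone, with Brg1d/d 1 below Brg1d/d 2, and for Lefty2 it came mostly from Brg1d/d 3. Gsc (0.11), Lhx1 (-0.14) and Lefty1 (-0.23) were closer. Nodal, Foxh1 and Chrd were thus higher on the arrays with scan days of their own, and the groups of Gsc and Lhx1 were set apart by much the same amount on the shared day.

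**Figure D3:**
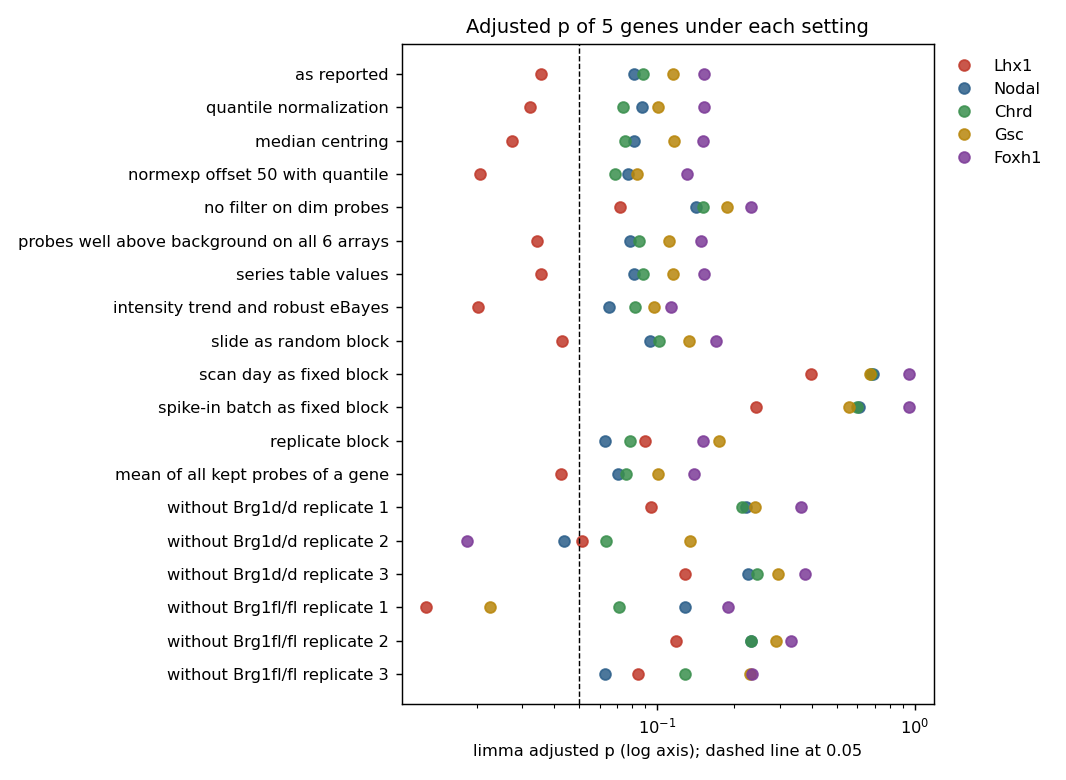
Limma adjusted p of Lhx1, Nodal, Chrd, Gsc and Foxh1 under the 18 alternatives and as reported, on a log axis with a dashed line at 0.05. Lhx1 lies under 0.05 as reported and under 9 alternatives, Nodal, Gsc and Foxh1 under 1 alternative each, and Chrd under none.

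Around these genes, 5 lists of the pathway and of the tissues it patterns held 69 further genes, of which 67 were on the array and 65 were tested. Of the 65, 11 rose and 4 fell, and their median difference was 0.11, against 0.07 over all genes. Medians within 0.10 of 0 carry no direction, since with arrays centred on the median those of the first 4 lists were -0.08 to -0.002. They also depended on reading 1 probe per gene. With a gene's probes averaged, the medians were 0.47 for receptors and processing and -0.06 for signal transducers. They were then 0.26 for the primitive streak list and 0.19 for the node list, against 0.09 over all genes. The receptor and ligand-processing list had 10 tested genes with a median of 0.10. Cfc1 (Cryptic), a coreceptor of Nodal in left-right patterning, rose. It was at 0.13, -0.32 and -0.04 in Brg1d/d embryos, against -2.08, -2.47 and -1.42 in Brg1fl/fl embryos, with no overlap between the groups. The difference was 1.91 ± 0.29 (SE), or 3.76-fold (limma adjusted p 0.0159), and 1.67 on the shared scan day. Without Brg1d/d 1 or 3 or Brg1fl/fl 2 the limma adjusted p of Cfc1 was 0.0794, 0.0716 and 0.061, within 0.00796 to 0.379 over 18 alternatives. Pcsk5, a proprotein convertase, fell by 0.78 ± 0.16 (SE, limma adjusted p 0.0356), and the shared scan day gave -0.90. Its call was lost without any 1 of Brg1d/d 1, Brg1d/d 3, Brg1fl/fl 2 and Brg1fl/fl 3 (limma adjusted p 0.121, 0.102, 0.134 and 0.0692, within 0.0143 to 0.347 over 18 alternatives). The other 8 did not pass, among them the type I receptor Acvr1b at 0.01.

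Of 14 signal transducers, none rose and 1 fell by limma (0 higher and 2 lower at an unadjusted p under 0.05), with a median of 0.02. Dact2, which in zebrafish promotes the breakdown of Nodal receptors, was at 0.73, 0.91 and 0.36 in Brg1d/d embryos, against 2.23, 2.58 and 2.41 in Brg1fl/fl embryos. No knockout value reached the controls, and Dact2 fell by 1.74 ± 0.20 (SE), or 3.35-fold (limma adjusted p 0.00739), and the shared scan day gave -1.50. It passed under 16 of 18 alternatives, those with scan day or spike-in level as a block being the exceptions (limma adjusted p 0.00214 to 0.215). Smad2, which carries the Nodal signal to the nucleus, had a difference of -0.47 that did not pass (limma adjusted p 0.139).

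In the list for the primitive streak and mesendoderm, 3 of 16 tested genes rose and 2 fell, with a median of 0.03. The 2 that fell were anterior or forebrain genes in that list, Otx2 and Lhx5. Eomes, a T-box factor of the early streak that is also a gene of trophoblast, rose by 3.07 ± 0.58 (SE, 8.38-fold, limma adjusted p 0.029), and the shared scan day gave 3.25. It was lower after normexp correction, at 1.73, and without Brg1fl/fl 1, at 2.43, and lay between 1.73 and 3.66 over 18 alternatives. Mesp1, a factor of early mesoderm, rose by 1.99 ± 0.46 (SE, limma adjusted p 0.0475) and Sox17, a factor of endoderm and of endothelium, by 1.01 ± 0.18 (SE, limma adjusted p 0.0233). Otx2, a gene of the anterior epiblast and later of the forebrain and midbrain, fell by 1.65 ± 0.27 (SE, limma adjusted p 0.0201), and Lhx5, a LIM homeobox gene of the forebrain, by 1.06 ± 0.24 (SE, limma adjusted p 0.0463). T (brachyury), the streak and notochord gene, was at -0.26 and did not pass (limma adjusted p 0.58). Each of the 5 calls was lost without Brg1d/d 1 (limma adjusted p 0.0813 to 0.151), without Brg1d/d 3 (0.0716 to 0.160) and without Brg1fl/fl 2 (0.0765 to 0.109). The calls of Mesp1, Sox17 and Lhx5 were also lost without Brg1fl/fl 3 (0.0732, 0.0582 and 0.0796), and that of Mesp1 without Brg1d/d 2 (0.0503). Over 18 alternatives the 5 genes kept their sign, at 1.47 to 2.29 for Mesp1, 0.87 to 1.30 for Sox17, -1.83 to -1.37 for Otx2 and -1.20 to -0.82 for Lhx5, with limma adjusted p-values of 0.00818 to 0.542.

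Of 17 genes of the node, notochord and prechordal plate, which Chrd and Gsc also mark, 2 rose and none fell by limma (4 higher and 2 lower at an unadjusted p under 0.05), with a median of 0.06. They were Cfc1, above, and Dkk1, a secreted Wnt inhibitor of the anterior visceral endoderm and prechordal plate. Dkk1 was at 2.18, 2.16 and 1.98 in Brg1d/d embryos, against 1.16, 0.80 and 0.81 in Brg1fl/fl embryos. The groups stood well apart, with a difference of 1.18 ± 0.17 (SE), or 2.27-fold (limma adjusted p 0.0136), and a same-day difference of 1.23. Without Brg1d/d 1 or 3 or Brg1fl/fl 2 the limma adjusted p of Dkk1 was 0.0682, 0.0555 and 0.0753, within 0.00479 to 0.286 over 18 alternatives. Genes of the node and notochord that did not pass were Foxa2 at 0.57, Nog at 0.33 and Shh at -0.72.

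Of 13 epiblast genes, 6 rose and 1 fell, and the median was 0.70 (0.81 on the shared scan day). Pou5f1 and Fgf5, genes of the epiblast before and during gastrulation, rose by 3.07 ± 0.38 and 3.002 ± 0.34 (SE, limma adjusted p 0.00937 and 0.00696). Nanog, a pluripotency factor, rose (limma adjusted p 0.00447) but did not exceed background clearly on the 3 control arrays, so its fold is uncertain. With each control set to the lowest signal well above background on its array, the rise was 7.76-fold on the centred scale. A probe not well above background can exceed that lowest signal, so this is not a strict bound. The fitted difference of Nanog was as low as 1.03 on the log2 scale after normexp correction. Nanog passed under 15 of 17 alternatives, the exceptions being scan day and spike-in level as a block (limma adjusted p 0.22 and 0.0757, within 0.0025 to 0.22). Dppa4 rose by 3.07 ± 0.67 (SE, limma adjusted p 0.0405), or by 1.96 after normexp correction. Its call was lost without any 1 of Brg1d/d 1, 2 and 3 and Brg1fl/fl 2 (limma adjusted p 0.0589 to 0.145, within 0.0116 to 0.468 over 18 alternatives). The gene that fell was Otx2, also in the streak list. With scan day or spike-in level as a block, Fgf5 and Pou5f1 did not pass either, at differences of 2.99 and 3.08. The call of Pou5f1 was lost without Brg1d/d 1 (limma adjusted p 0.0516, within 0.0024 to 0.297), and Fgf5 passed without each array in turn.

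**Figure D4:**
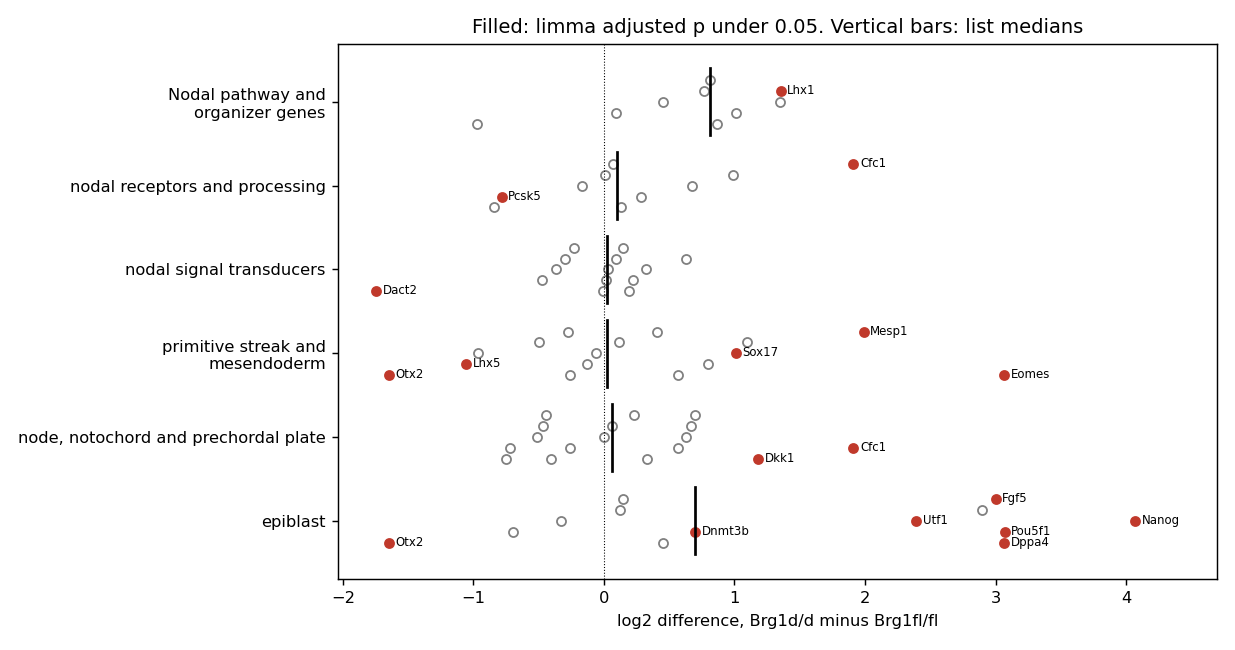
Differences of the tested Nodal and organizer genes and of 5 related lists, as log2 Brg1d/d minus Brg1fl/fl, with filled points for a limma adjusted p under 0.05 and a bar at each list's median. Nanog is drawn at its fitted value, with controls not clearly above background. Medians lie at 0.81 for the Nodal and organizer genes, 0.70 for the epiblast and 0.02 to 0.10 for the other 4 lists.

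Markers of other tissues moved with genotype in the same arrays, and their part in the results above was not tested. Of 9 measured trophoblast markers 5 rose, Eomes among them, and none fell (8 higher and 0 lower by limma at an unadjusted p under 0.05). The 5 differences ran from 1.41 (Hand1) to 3.23 (Elf5). The summed level of the list was 8.18 to 8.29 in Brg1d/d embryos, against 7.39 to 7.94 in Brg1fl/fl embryos. Most of that sum came from the keratins Krt18 and Krt8, which did not pass (limma adjusted p 0.139 and 0.129). Tpbpa, a marker of spongiotrophoblast, stayed near background throughout. Of 10 heart markers none rose and 9 fell (also 0 and 9 at an unadjusted p), with a summed level of 3.66 to 4.197 in Brg1d/d, against 7.17 to 7.69 in Brg1fl/fl. The anterior and neural plate list had 1 rise and 5 falls among 9 genes, with Otx2, counted above, among the falls. Its summed level was 1.44 to 1.63 in Brg1d/d and 2.64 to 3.43 in Brg1fl/fl, and Hesx1 stayed near background throughout. The somite list had 4 falls and no rise among 9 genes (6 and 0 at an unadjusted p). Its summed level was 1.81 to 1.98 in Brg1d/d and 2.92 to 4.38 in Brg1fl/fl, and Myf5 stayed near background throughout and was not tested. Among 9 decidua and uterus markers 1 rose and 4 fell, with a summed level of 0.81 to 1.11 in Brg1d/d and 2.06 to 3.56 in Brg1fl/fl. The rise was that of Prl8a2, by 4.47 ± 1.03 (SE, limma adjusted p 0.0459), with 1 control array well above background. The 4 that fell were Des, Lum, Col6a3 and Dcn. Lum, at 0.90, 3.25 and 2.51 in Brg1fl/fl embryos, was the largest part of the sum there, so the sum gives no direction for decidua. Visceral endoderm and yolk sac markers, a tissue related to the source of Cer1 and Lhx1, had 1 rise (Sox17) and no fall among 12 (2 and 0 at an unadjusted p). Their summed level was 8.83 to 9.13 in Brg1d/d and 6.89 to 9.06 in Brg1fl/fl, with the low value in Brg1fl/fl 1. In that embryo sample Cer1 and Lhx1 were highest of the controls and Nodal and Lefty1 lowest, and a link to these markers was not tested. Primitive erythroid markers had no call among 10 (0 higher and 2 lower at an unadjusted p), at 6.29 to 6.58 in Brg1d/d and 6.26 to 8.42 in Brg1fl/fl.

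The genes most like each in profile were sought among the 14186 genes that cleared background on every array, by the root mean square distance over the 6 arrays after each profile was centred on its mean. These distances are descriptions, and the 6 points share the genotype and scan-day differences between arrays. Those nearest to Lhx1 were 1700016H13Rik (0.11), Mmp25 (0.13) and Tmem200a (0.14), and all 3 were called higher. Nearest to Nodal were 2610524H06Rik (0.10), Cyp17a1 (0.17) and Nxph4 (0.17). Crip3 (0.04), Pappa (0.05) and Kazald1 (0.09) were nearest to Gsc, and 4930465K10Rik (0.10), Npff (0.11) and Ptgds (0.13) to Chrd. None of the genes nearest to Nodal, Gsc and Chrd passed. For Foxh1 they were Olfr571 (0.07), Slc25a18 (0.07) and Ccdc30 (0.08), none of which passed, and each was high on Brg1d/d 1 and 3 and close to the controls on Brg1d/d 2. Cer1 was less closely matched, by Slc15a2 (0.29), Nkx2-9 (0.30) and Zfp536 (0.33), as was Tdgf1, by Mug1 (0.19), Cyp2c66 (0.22) and Spem2 (0.24).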

How the data were processed

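Per the file headers and the submitters' processing notes, the authors read the arrays with Agilent Feature Extraction 9.5, which gave background-subtracted intensity per spot without scaling between arrays. Flags of 0 or 1 (unit: other) in the deposited files mark outliers and spots clear of background. The deposited series table held the same intensity, equal at 100% of spots (relative tolerance 1e-4). Control spots were left out, as were 53 to 83 outliers per array, spots of a probe were averaged, and log2 signals were centred on the array's 75th percentile. Of 41174 probes, 27844 cleared background on every array of 1 genotype or of both and were kept, and each gene was read through its brightest probe. Probe names were updated through RefSeq (GRCm38.p6). Genotypes were compared in limma 3.58.1 (R 4.3.3) without covariates, after the fit was tested on simulated data. The text names all 10 genes, up to 4 passing genes per direction in each list, the 3 nearest profiles and some genes that did not pass, chosen after their values were seen. The genes and lists were chosen with earlier results of these data known. The 6 arrays limit the precision. Alternatives covered scaling, background correction, filter, variance model, slide, scan day, spike-in level, replicate number, probe choice and each array left out. Changes of filter, variance model, slide and replicate number left each difference given here with a range unchanged, so there only its p-value could move. The series table, also counted as an alternative, repeated the reported fit.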

Additional observations from a re-analysis of the deposited data

How the results depend on the processing

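The count of the 9 tested genes that passed (1) and of pathway list genes (15) and of all genes (1585) stayed within 1.5 times under quantile normalization, median centring, normexp correction, a stricter filter, the series table, a variance trend, slide as a random block and the mean of a gene's probes. Counts moved under 4 others: without a filter on dim probes they were 0, 9 and 694, blocking on scan day 0, 0 and 0 (1793 genes at an unadjusted p under 0.05, 1 of the 9), blocking on spike-in level 0, 0 and 122, and with the replicate block 0, 8 and 572. Samples with equal replicate numbers had deviations from their group means that correlated at -0.13, 0.08 and 0.09, which gave no sign of pairing. With 3 samples per genotype and scan days that differ among the knockout arrays, these values cannot exclude it. Lhx1 did not pass with the replicate block (limma adjusted p 0.0897). Leaving out each array gave 0 to 2 of the 9 genes, 4 to 17 list genes and 308 to 2917 of all genes. The counts of all genes were 327, 2917 and 345 without Brg1d/d 1, 2 and 3, and 308 and 928 without Brg1fl/fl 2 and 3. Lhx1 and Gsc passed without Brg1fl/fl 1, and Nodal and Foxh1 without Brg1d/d 2. Brg1d/d 2 was the only knockout array with the scan day and spike-in level of the controls, so without it genotype could not be told apart from these. The median of the 9 genes was 0.56 to 1.04 with an array left out, and 0.59 to 0.81 under the other alternatives that tested the same 9. It was 0.87 over the 7 genes left by the stricter filter and 0.79 over 10 without a filter. Tdgf1 was below 0 under median centring (-0.011), normexp correction (-0.0094), scan day and spike-in level as blocks (-0.48 each), and ranged from -0.49 to 0.38 with an array left out (below 0 without Brg1d/d 3, and at -0.23 without Brg1fl/fl 2). Lefty1 was below 0 under quantile normalization (-0.040) and ranged from -0.12 to 1.48 with an array left out (1.48 without Brg1fl/fl 2, -0.12 and -0.0007 without Brg1fl/fl 1 and 3). The causes were not tested. Signal near background limits Gdf3, Lefty1 and Lefty2.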
